A study of Mus musculus with 16 samples.

Results

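Ewsr1, Taf15, Nono, Sfpq and Pspc1 encode RNA-binding proteins of the FET and paraspeckle families, and the 5 genes were taken as a list of names, drawn up with earlier results of these data known. They are 5 of the 55413 genes annotated on chromosomes 1 to 19, X and Y, of which 21938 are protein-coding and served as the background. Chromatin immunoprecipitation with sequencing (ChIP-seq) was performed on clear cell sarcoma (CCS) tumours of genetically engineered mice. All tumours expressed the fusion EWSR1::ATF1, encoded by a human complementary DNA that carries a V5 peptide tag and is driven by the Rosa26 promoter once TATCre injected in the hindlimb has removed a stop. The 16 labelled samples were 4 of V5, which locates the fusion, 4 of RNAPOL2, the phosphorylated form of RNA polymerase II, 4 of H3K27ac, a histone acetylation of active promoters and enhancers, and 4 of input chromatin. The mice were of a mixed 129/SvJ and C57Bl/6 background, all 16 samples share the genotype, and no sample came from tissue without the fusion.

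FET proteins bind RNA and carry a flexible amino-terminal region of low sequence complexity that can recruit other proteins, including the transcription machinery. EWSR1 is the FET protein whose amino-terminal region forms the first part of the fusion in CCS, and TAF15 is a second member of the family found with the general transcription factor TFIID. NONO, SFPQ and PSPC1 form the DBHS family, pair with one another, and assemble with the long noncoding RNA NEAT1 into paraspeckles, bodies of the nucleus that retain RNA and proteins.

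Each antibody is represented by 1 list of peaks from its samples, where every peak has 2 coordinates and a score. The lists held 10665 V5, 20375 RNAPOL2 and 27552 H3K27ac peaks. The study describes more V5 sites than the list analysed here holds, so every V5 count, share and distance below applies to this shorter list, and a gene without V5 is one with no peak in it. No list gives a value per tumour or a read count, so no spread between tumours could be measured and none of the comparisons below has a test. No source used here gives the scale of the scores, and scores and ranks (rank 1 is the highest score) were compared only within a list. Of 7 markers of CCS and melanocytes, Mitf and Pmel had both RNAPOL2 and H3K27ac promoter peaks, S100b had H3K27ac alone, Dct had V5 alone, and Sox10, Mlana and Tyr had none. None of 6 skeletal muscle markers had a promoter peak of any list. H3K27ac peaks lay at the promoters of 3 of 3 immune and 2 of 2 endothelial markers, and RNAPOL2 at 1 of these 5 (Cd68), and the part of such other cells in the peaks described here was not tested.

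All 5 genes carried RNAPOL2 and H3K27ac at their promoters, and only Ewsr1 among them had a V5 peak in the list used here. A promoter peak is a peak that overlaps the 3 kb on either side of any annotated transcription start site (TSS). RNAPOL2 promoter peaks were found at 53.5% and H3K27ac promoter peaks at 58.6% of coding genes, and 52.2% had both. V5 promoter peaks were found at 16.6% of coding genes and at 30.4% of the 11443 coding genes with both other marks, against 1 of the 5 genes here. With so few genes, 1 of 5 is near either share.

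The sequence under the V5 peak of Ewsr1 is shown first because it is the only place where the fusion was detected at these genes. The peak lay at chr11:5098941-5099630 (mm10) and spanned the first exon of Ewsr1, from 364 bp upstream to 325 bp downstream of the gene's 5′ end. Ewsr1 is read from the minus strand, and Rhbdd3, a gene of a rhomboid-like protein, starts on the plus strand in the same interval. The peak held 5 distinct TSSs of Ewsr1 and 6 of Rhbdd3, so the V5 signal cannot be assigned to either gene. The RNAPOL2 and H3K27ac peaks over it also span the TSSs of both genes, and the scores and widths given for Ewsr1 are those of this shared promoter. It had a GC content of 68.3%. None of TGACGTCA, the canonical ATF/CREB motif, any other TGANNTCA, the AP1 motif TGAGTCA or a string of more than 4 TGA or TCA units was present on either strand. These were found in 8.51%, 40.3%, 26.0% and 10.2% of all V5 peaks. The peak held 1 TGACG, the first 5 bases of the canonical motif and known as its half-site, which was present in 70.9% of V5 peaks. This shorter motif was searched after the peak had been seen to hold no full motif. The 30 bases around it, shown on the plus strand with the half-site in capitals, lay at chr11:5099213-5099242, and the middle of the half-site was 57 bp from the middle of the peak.
Ewsr1 V5 peak, half-site: aaagagccggacgTGACGagtggtctaaaa
A match of 5 bases describes the sequence and does not show a binding site.

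**Figure D1:**
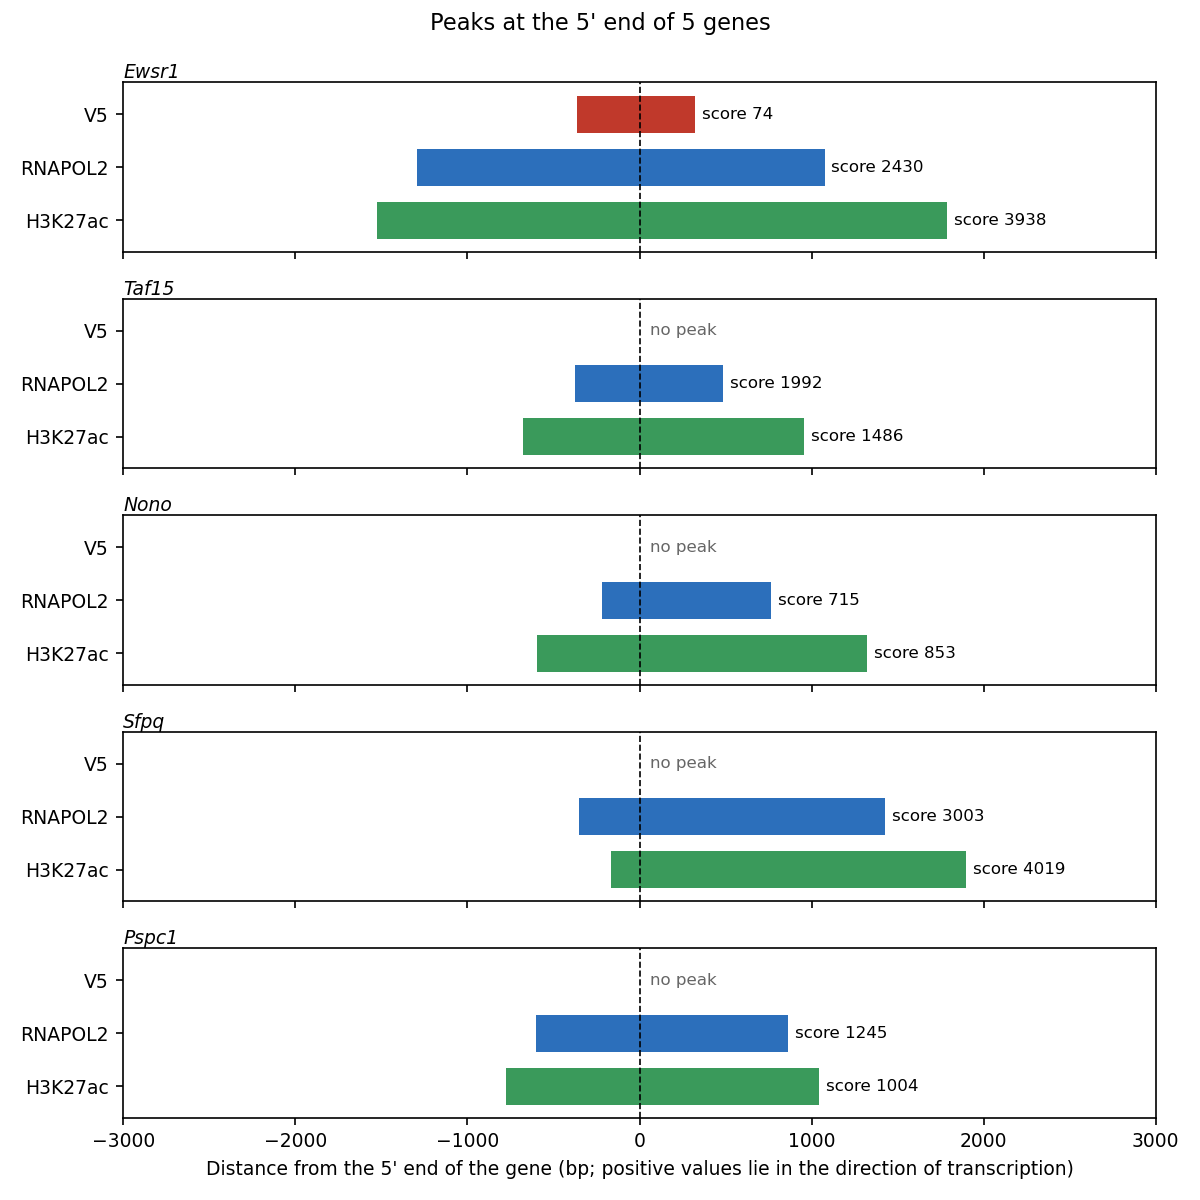
Peaks of the 3 lists (rows) at the 5′ end of each gene. The x axis is the distance from the 5′ end in bp in the direction of transcription, and each bar is 1 peak with its score. The 5 genes have RNAPOL2 and H3K27ac bars over the 5′ end, and the 1 V5 bar, at Ewsr1 with score 74, lies inside both other bars.

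The V5 peak at the promoter shared by Ewsr1 and Rhbdd3 had a low score, whereas the other marks there had high scores. Its score of 74 ranked 9617 of 10665, and 3058 of the 3640 coding genes with a V5 promoter peak scored higher (median 196). Among the 3484 coding genes with all 3 marks, 16.3% had a V5 score below that of Ewsr1 (median 191, quartiles 94 and 496). The RNAPOL2 peak of the same promoter scored 2430 (rank 1262) and was above 87.7% of coding genes with such a peak. The H3K27ac peak scored 3938 (rank 428), above 96.2% of them. Thus the shared promoter stood in the upper part of both activity marks and in the lower part of the V5 list.

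The second FET gene, Taf15, had an RNAPOL2 promoter score of 1992 (rank 1826), above 82.0% of coding genes with an RNAPOL2 promoter peak. Its H3K27ac score was 1486 (rank 3362), above 70.5% of coding genes with an H3K27ac promoter peak. No V5 peak lay within 50 kb of any of its 5 TSSs.

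The 3 DBHS genes covered the whole span of promoter scores seen among the 5 genes. Sfpq, whose protein also binds polypyrimidine tracts in splicing, had the highest values of both marks. Its RNAPOL2 score was 3003 (rank 822, above 91.9% of coding genes with a peak) and its H3K27ac score was 4019 (rank 407, above 96.3%). Pspc1, which encodes paraspeckle component 1, was intermediate, with an RNAPOL2 score of 1245 (rank 3756, above 63.6%) and an H3K27ac score of 1004 (rank 5209, above 55.9%). Nono, whose protein is the partner most often found with SFPQ, had the lowest values. Its RNAPOL2 score was 715 (rank 6359, above 39.3%) and its H3K27ac score was 853 (rank 6056, above 49.5%).

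Both marks placed the genes in the same order, which was Sfpq, Ewsr1, Taf15, Pspc1 and Nono. Against medians over coding genes of 912 for RNAPOL2 and 863 for H3K27ac, Nono was the one gene below the median, in both lists. The closest neighbours in the order were Sfpq and Ewsr1 in H3K27ac (4019 and 3938). Whether any neighbours differ by more than the spread between tumours was not tested, since the lists give no values per tumour.

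**Figure D2:**
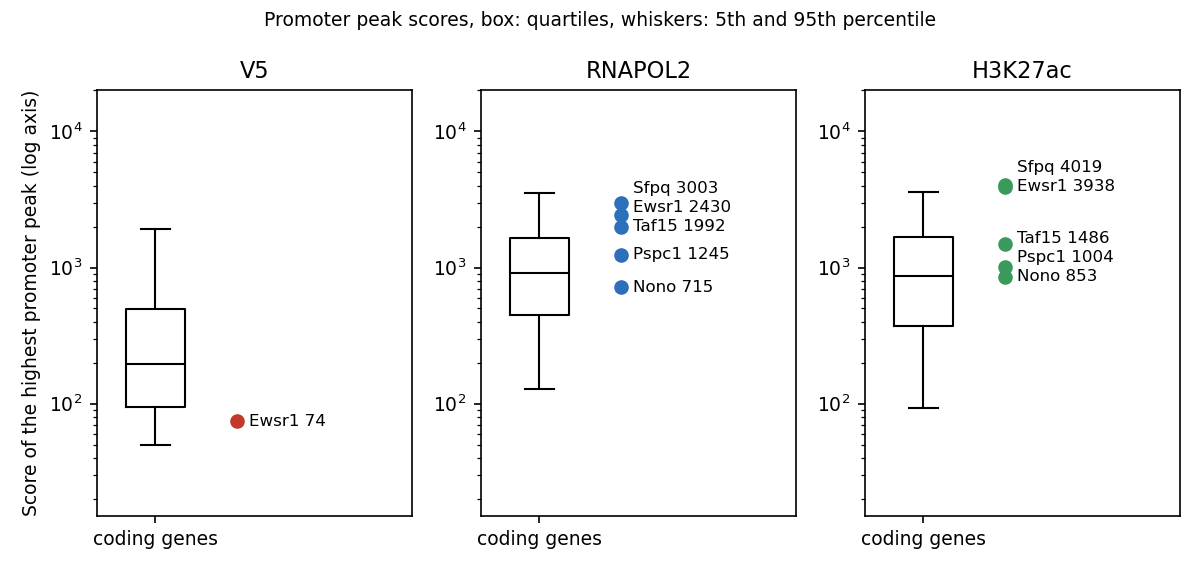
Score of the highest promoter peak (log axis) in each list, which have separate scales. Boxes give the quartiles and median of coding genes with a promoter peak, whiskers the 5th and 95th percentiles, and points the 5 genes. Ewsr1 (74) lies below the lower quartile of V5 (94), Sfpq and Ewsr1 lie above the 95th percentile of H3K27ac (3616), and Nono is lowest in both activity marks.

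V5 promoter peaks were more frequent where the other marks scored higher, which sets a background for each gene. Among the coding genes with both marks, the share with V5 was 13.4% in the lowest decile of RNAPOL2 scores and 60.1% in the highest. By H3K27ac it was 10.4% in the lowest decile and 65.2% in the highest. Median H3K27ac scores were 1618 for promoters with V5 and 792 for those without, and median RNAPOL2 scores were 1405 and 790.

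Sfpq fell in the highest decile of both marks, where V5 was most frequent, and had no V5 peak. Ewsr1 shared the H3K27ac decile of Sfpq and had V5. Ewsr1 and Taf15 shared decile 9 of RNAPOL2, where 46.2% of genes had V5, and differed in V5. The H3K27ac deciles of Taf15, Pspc1 and Nono had V5 at 33.4%, 32.0% and 26.1% of promoters. In each of these 3 deciles most genes had no V5 promoter peak.

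**Figure D3:**
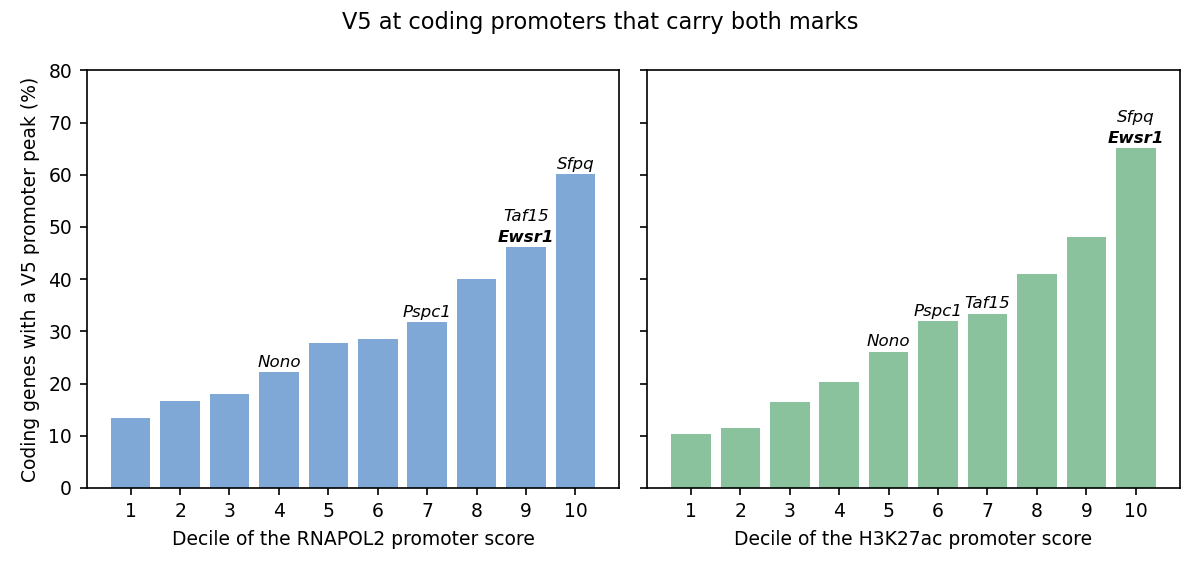
Percent of coding genes with a V5 promoter peak, by decile (1 lowest, 10 highest) of the RNAPOL2 promoter score (left) and of the H3K27ac promoter score (right), among genes with both marks. Gene names stand over their decile, Ewsr1, the gene with V5, in bold. The share rises to 60.1% and 65.2% in the highest deciles, where Sfpq stands without V5.

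At all 5 promoters the acetylated interval was wider than that of the polymerase. The H3K27ac peaks were called with the broad option of MACS2 and the others without it, so the part of the calling mode and that of the chromatin in the widths cannot be told apart. The H3K27ac peak of Ewsr1 was the widest at 3310 bp, followed by Sfpq with 2060 bp, Nono with 1920 bp, Pspc1 with 1820 bp and Taf15 with 1630 bp. The median over coding genes was 1610 bp. RNAPOL2 peaks spanned 2370 bp at Ewsr1, 1780 bp at Sfpq, 1470 bp at Pspc1, 980 bp at Nono and 860 bp at Taf15, with a median of 1000 bp over coding genes. Taf15 therefore combined a high RNAPOL2 score with a narrow peak. The H3K27ac peak was the wider of the pair at 92.1% of coding genes with both, and the RNAPOL2 peak lay inside it at 75%. The latter held at 4 of the 5 genes, the exception being Sfpq, where RNAPOL2 began 353 bp and H3K27ac 163 bp upstream of the 5′ end.

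The promoters of the 4 genes without V5 are shown to place them beside that of Ewsr1. In the 1 RefSeq promoter entry of each of the 5 genes (mm10, 300 bases), none held TGACGTCA, another TGANNTCA, TGAGTCA or a string of TGA or TCA units. Of all 32851 RefSeq promoters of that length 1.79%, 12.5%, 5.20% and 1.83% held them. TGACG was found in the promoter of Ewsr1 alone, 1 of the 5, and in 20.8% of all promoters. The CCAAT box, a common element of active promoters that was searched after these sequences had been seen, was found in 4 of the 5 promoters and in 37.4% of all, on either strand. Ewsr1 was the one without. The stretches below lie upstream of the TSS of the first-numbered GENCODE transcript of each gene and hold no annotated exon. Capitals mark CCAAT or its reverse complement ATTGG.
Taf15, chr11:83472892-83473085, plus strand: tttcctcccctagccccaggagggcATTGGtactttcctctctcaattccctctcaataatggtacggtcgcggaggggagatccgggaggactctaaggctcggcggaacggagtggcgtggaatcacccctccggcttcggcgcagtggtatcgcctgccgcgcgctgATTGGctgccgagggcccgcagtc
Nono, chrX:101429378-101429554, plus strand: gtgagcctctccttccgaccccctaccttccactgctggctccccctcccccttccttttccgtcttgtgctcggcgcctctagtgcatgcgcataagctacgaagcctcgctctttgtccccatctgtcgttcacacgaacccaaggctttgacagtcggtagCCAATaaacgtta
Sfpq, chr4:127021124-127021323, plus strand: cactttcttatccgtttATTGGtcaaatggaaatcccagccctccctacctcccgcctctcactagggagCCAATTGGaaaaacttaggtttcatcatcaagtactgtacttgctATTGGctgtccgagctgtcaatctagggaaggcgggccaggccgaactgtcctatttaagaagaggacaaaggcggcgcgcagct
Pspc1, chr14:56778317-56778516, minus strand: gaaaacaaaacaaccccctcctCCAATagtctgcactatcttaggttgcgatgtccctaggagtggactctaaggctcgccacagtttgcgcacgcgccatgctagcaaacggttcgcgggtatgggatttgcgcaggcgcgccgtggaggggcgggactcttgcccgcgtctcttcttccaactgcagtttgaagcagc
Sfpq held 4 matches, of which those at positions -130 and -127 from that TSS overlap on opposite strands, and the others were at -183 and -85. Taf15 held 2, at -175 and -30, Nono held 1 at -13 and Pspc1 held 1 at -178. The RefSeq promoter of Nono starts further downstream and held 2. The TSS-proximal stretches differed in base composition, with a GC content of 63.4% for Taf15, 57.1% for Nono, 50.5% for Sfpq and 57.5% for Pspc1.

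In the gene bodies and the wider windows, the counts of RNAPOL2 peaks ranged more widely than those of H3K27ac. All 5 had RNAPOL2 and H3K27ac peaks in the gene body, as did 53.7% and 59.1% of coding genes, and Ewsr1 alone had V5 (20.0% of coding genes), owing to the promoter peak that reaches into its first exon. Beyond the promoter windows, V5 and H3K27ac had no peak in any of the 5 bodies, and RNAPOL2 had peaks in 2 of the 5. Within 50 kb of the TSSs, 1 of 5 genes had V5 (41.3% of coding genes), and 5 of 5 had RNAPOL2 (69.9%) and H3K27ac (75.1%). Ewsr1 had 10 RNAPOL2 peaks in that range, and 3.62% of coding genes had more. Sfpq had 6, Nono 3, Pspc1 2 and Taf15 1, against a median of 2. These counts include the peak at each 5′ end and those at neighbouring genes. Of the 10 at Ewsr1, 4 lay over Gas2l1, Rasl10a or Rhbdd3 and outside Ewsr1, and the promoter peaks of Zmym3, Zmym1 and Zmym5 were among those of Nono, Sfpq and Pspc1. The number of H3K27ac peaks was 4 at Taf15, 3 at Ewsr1 and 2 at each DBHS gene, with a median of 2 over coding genes.

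**Figure D4:**
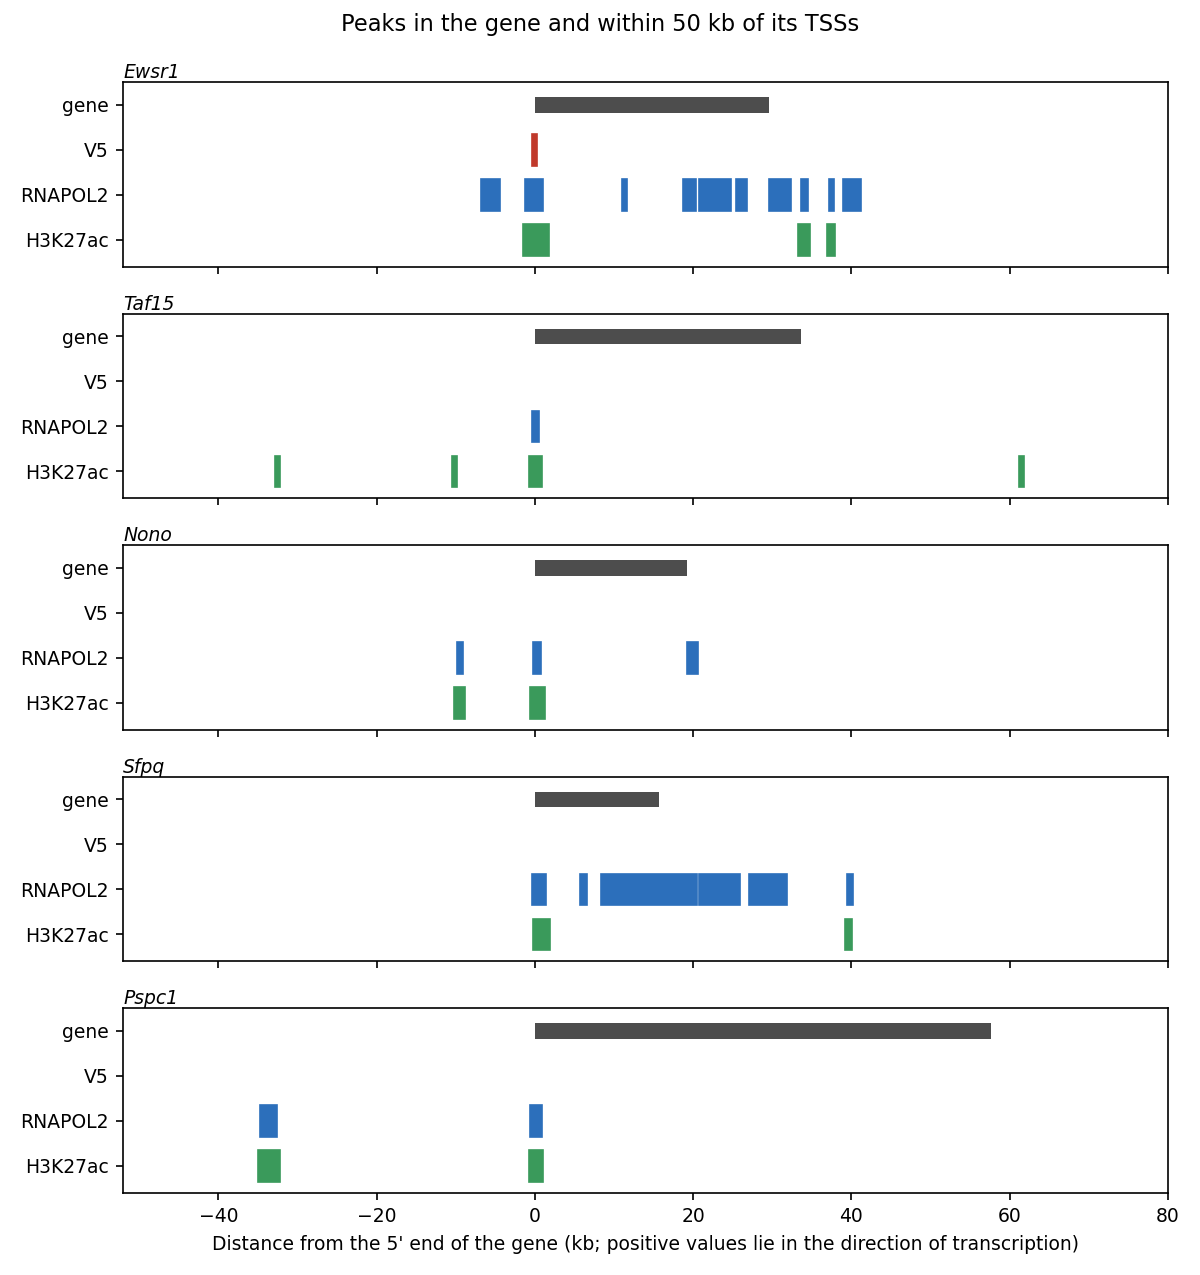
Peaks of the 3 lists in each gene and within 50 kb of its TSSs. The x axis is the distance from the 5′ end in kb in the direction of transcription, and grey bars are the genes. RNAPOL2 bars follow one another through Ewsr1 and past its end, and a near-continuous run of 23.4 kb starts inside Sfpq, whereas Taf15 and Pspc1 have RNAPOL2 in the gene at the 5′ end alone.

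Peaks of RNAPOL2 were spread along Ewsr1. They covered 29.8% of its 29578 bp, more than in 95.9% of the 8738 coding genes of at least 10 kb with an RNAPOL2 promoter peak (median 2.18%). Past the peak at the 5′ end the scores were low, although each of these peaks lay within 3 kb of 1 of the 12 annotated TSSs of Ewsr1. From 5′ to 3′ they were chr11:5087661-5088240 (score 39), chr11:5078881-5080520 (63), chr11:5074431-5078490 (137), chr11:5072381-5073810 (80) and chr11:5066871-5069710 (210). The widest of them, at 4060 bp, lay almost wholly in the intron between exons 9 and 10 of the coding transcript of 15 exons used here. Of its exons, RNAPOL2 peaks touched exons 1, 5, 9, 10 and 15. V5 and H3K27ac peaks touched exon 1 alone. The peak of score 63 touched none of them, although 66.0% of it lay in exons of other Ewsr1 transcripts. The transgene carries the first part of EWSR1 as a human complementary DNA, which holds no introns. Whether reads from it were aligned to exons of Ewsr1 was not tested. Of the peaks of score 137 and 210, 0.443% and 0.775% lay in Ewsr1 exons.

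The last of these peaks crossed the 3′ end of Ewsr1 and reached 2.8 kb beyond it. Gas2l1, the next coding gene, begins 4362 bp past the end on the same strand and had its own RNAPOL2 peak of score 1672. Its TSS lies within 3 kb of the peak at the Ewsr1 end, so polymerase leaving Ewsr1 and polymerase upstream of Gas2l1 cannot be told apart.

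Sfpq showed the longest stretch of RNAPOL2 peaks. The 3 successive RNAPOL2 peaks with gaps of 270 and 1170 bp ran over 23.4 kb from chr4:127029731 to chr4:127053170. They began within the gene and ended 21.9 kb past the end of its 1 coding transcript. The first was 12130 bp wide (score 395), rank 133 by width among the 20375 peaks, and wider than 99.3% of them. The others were 5160 bp (score 127) and 4710 bp (score 80). No H3K27ac peak lay in the run. RNAPOL2 peaks covered 61.6% of the Sfpq body, more than in 98.7% of the long coding genes above. Sfpq is short at 15690 bp, and a peak of a given width takes a larger percent of a short body. Neither this comparison nor that of Ewsr1 was matched for gene length.

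The annotation of this stretch differs between sources. GENCODE vM21 places the noncoding transcript Gm12940 on the same strand, from chr4:127033731 to chr4:127049398, so that it starts past the end of the coding transcript but within the annotated Sfpq gene, which ends at 127037013. In contrast, RefSeq lists Gm12940 as a synonym of Sfpq and extends the gene to position 127051101. The run also covered the 3′ part of Zmym1, which is read from the other strand and converges on Sfpq. ChIP-seq carries no strand, so polymerase on Sfpq and on Zmym1 cannot be told apart where they overlap.

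In the remaining genes few RNAPOL2 peaks were called past the 5′ end, which does not show that polymerase was absent there. RNAPOL2 peaks covered 4.22% of Nono, 1.5% of Pspc1 and 1.44% of Taf15. Nono had a peak at its 3′ end (chrX:101448541-101449900, score 98), where the TSS of Itgb1bp2 lies 497 bp past the end, so the source of this peak cannot be told apart either. A peak in the 3 kb past the gene end was present at Ewsr1, Nono and Sfpq, 3 of the 5 genes, and at 36.0% of coding genes with an RNAPOL2 promoter peak. Taf15 and Pspc1, the longest of the 5 genes, had none.

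The 4 genes without V5 at the promoter lay at very different distances from the fusion. The nearest V5 peak was 61.0 kb from a TSS of Taf15 (chr11:83411491-83412130, score 253), within Rasl10b. It was 108 kb from Pspc1 (chr14:56886211-56887030, score 49), at the promoter of Zmym2, and 343 kb from Sfpq (chr4:126677221-126678060, score 4762, rank 81), in the proteasome subunit gene Psmb2. For Nono it was 904 kb away (chrX:102349381-102350280, score 482), in the deacetylase gene Hdac8. These genes were named from the position of the peaks after the lists had been examined, and nothing in the lists links the peaks to the 4 genes.

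Coding genes had a median distance of 75.7 kb to the nearest V5 peak, and those with both other marks 29.9 kb. Among the latter, 36.7% were farther than Taf15, 24.3% farther than Pspc1, 6.40% farther than Sfpq and 1.93% farther than Nono. Nono lies on chromosome X, which held 65 of the V5 peaks. The median for coding genes on X was 797 kb, and 46.4% of them were farther from a V5 peak than Nono was. Coding genes on X with both marks had V5 at the promoter in 27 of 269 cases, against 3457 of 11174 (30.9%) on the other chromosomes.

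**Figure D5:**
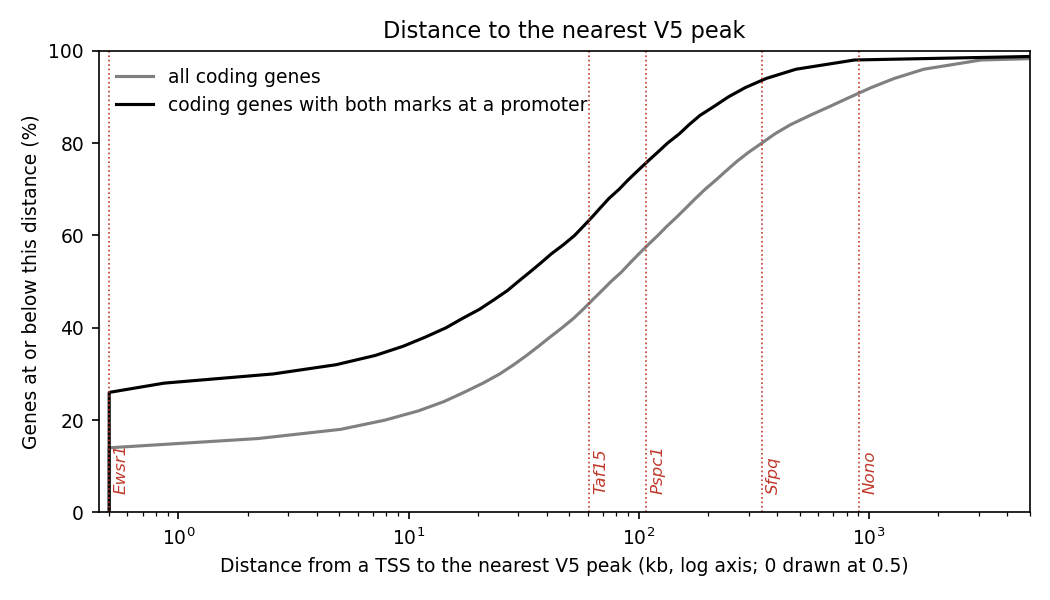
Cumulative percent of coding genes by distance from a TSS to the nearest V5 peak (kb, log axis, with 0 drawn at the left edge), for all coding genes (grey) and those with RNAPOL2 and H3K27ac at a promoter (black). Dotted lines mark the 5 genes, from Ewsr1 at 0 to Nono at 904 kb.

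A position shared by the 3 DBHS genes was seen once the neighbours had been listed. Each lies next to a gene of the Zmym family, which encodes zinc finger proteins of the MYM type, with no coding gene between them. Nono and Zmym3 diverge with a gap of 8.47 kb, Sfpq and Zmym1 converge across 10.1 kb by GENCODE and overlap by the longer RefSeq extent of Sfpq, and Pspc1 lies downstream of Zmym5 on the same strand across 12.3 kb. Zmym4 lies on the other side of Sfpq, so that 4 of the 6 Zmym genes adjoin a DBHS gene.

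The promoter scores of these neighbours are given beside those of the DBHS genes, with no test. The RNAPOL2 score was 448 at Zmym3, 835 at Zmym1, 518 at Zmym4 and 1992 at Zmym5. Sfpq (3003) thus lay between a pair of genes with lower RNAPOL2 scores, Nono (715) lay beside the lowest of the 4 neighbours, and Pspc1 (1245) was below Zmym5. H3K27ac scores were 463 at Zmym3, 273 at Zmym1, 2688 at Zmym4 and 2696 at Zmym5. None of the 4 had a V5 promoter peak. In the whole family Zmym2 had one, 1 of 6, beside 16.6% of all coding genes. Every Zmym gene had both RNAPOL2 and H3K27ac promoter peaks, and of coding genes with both marks 30.4% had V5. The difference from either share was not tested.

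The genes most like each member were found by the distance between the percentiles of their promoter scores among all peaks of each list, in percentile points, with 0 for a gene without a peak. For Ewsr1 they were Kbtbd2 (1.69 points) and Snx3 (1.83), each with a V5 score of 76. Taf15 was closest to Trim27 (0.357) and Ano6 (0.363), and Nono to Igf2r (0.301) and Ankmy2 (0.304). The nearest to Sfpq were Siah1a and Gm10638, both on chromosome 8, at 0.226 points each and with the same scores in each list. Those to Pspc1 were Cct6b and Zfp830, both on chromosome 11, at 0.0376 points each and also with the same scores. Each of these pairs may therefore stand for the same promoter peaks, which was not examined. Among themselves the 5 genes lay from 9.98 points apart, between Ewsr1 and Sfpq, most of it from the V5 percentile of 9.75 at Ewsr1 against 0 at Sfpq, to 34.4 points between Nono and Sfpq.

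Among other genes of paraspeckles and of related RNA-binding proteins, many carried V5 at the promoter. Of 26 such genes, all 26 had RNAPOL2 and H3K27ac promoter peaks, and 16 (61.5%) had V5, beside the 30.4% of coding genes with both marks. Their promoters were strong in both, with median scores of 2688 for RNAPOL2 and 2727 for H3K27ac, which fall in decile 9, where 46.2% and 48.1% of coding genes had V5. No test was run, since the list was drawn up with earlier results of these data known. Neat1, the RNA on which paraspeckles are built, had the highest V5 score of the list at 709 (rank 1825). Its RNAPOL2 score was 8999 (rank 38) and its H3K27ac score 3857 (rank 445). Thus the paraspeckle RNA had a V5 peak at its promoter and the 3 DBHS protein genes did not.

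The 15 others with V5 had scores from 43 to 196. Cpsf6 (196), Nudt21 (113) and Cpsf7 (163) encode subunits of cleavage factor I, which acts in 3′ end processing. Among genes of RBM proteins V5 scores were 153 for Rbm3, 145 for Rbm7, 142 for Rbm14, whose product is required for paraspeckles, and 103 for Rbm4b. Genes of hnRNP proteins had 103 (Hnrnpk), 89 (Hnrnpr), 61 (Hnrnph1) and 50 (Hnrnph3). Matr3, the gene of a nuclear matrix protein that binds RNA, had 64, Ubap2l had 50, and Dazap1 and the cold-inducible Cirbp had 43. The median of the 16 was 103, so the score of 74 at Ewsr1 lay within their range, and 196 was the median of all coding genes with V5 at the promoter. Without V5 were Akap8l, Fam98a, Hnrnpa1, Hnrnpf, Hnrnpm, Hnrnpul1, Rbm12, Rbmx, Srsf10 and Tardbp, the gene of TDP-43.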

How the data were processed

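The data were ChIP-seq of mouse tumours with V5-tagged EWSR1::ATF1, with 4 labelled samples each for V5, RNAPOL2, H3K27ac and input. The authors aligned reads to mm10 with BWA and called peaks against input with MACS2; the submitters' processing notes name BWA 0.7.10-r789 and MACS2 2.2.6. The broad option of the caller was used for H3K27ac only. The 3 deposited lists hold, for each peak, a start, an end and a score, a whole number given by the authors whose scale is not stated. Whether replicates were pooled before or after calling is not stated, and the methods name more samples for V5 and RNAPOL2 than the labels, so the samples behind each list are not known. The study also describes more V5 sites than the V5 list used here holds. No depth per sample was used, input lists were not analysed here, and 0 columns were unmatched to a group.

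Genes came from GENCODE vM21 on the same build (55413 genes and 141730 transcripts on chromosomes 1 to 19, X and Y). Promoter windows spanned 3 kb on each side of any TSS, the wide windows 50 kb, and an overlap needed 1 bp. Of several promoter peaks, the highest score was used. Motifs were read on both strands, strings with gaps of up to 5 bp. RefSeq promoter entries matched all 5 genes. Runs of peaks were joined over gaps of up to 2 kb.

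Named were the 5 genes, V5 peaks within 50 kb, other genes with a TSS near their promoter peaks, the 2 coding genes most alike in the 3 percentiles, and Neat1 and related genes with V5. Other names were chosen after their values were seen. The members and lists were chosen with earlier results of these data known. Alternatives, 48 in all, changed the windows, the overlap rule, the score limit and the gene set. Python 3.11.15, numpy 2.4.6, pandas 2.3.3 and matplotlib 3.10.9 were used, and overlaps and motif searches were tested on simulated data.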

Additional observations from a re-analysis of the deposited data

How the results depend on the processing

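Of 36 alternative counts for the 5 genes 25 stayed within 1.5 times the first value and 11 moved further. With the upper 50% of each list by score, the V5 peak of Ewsr1 was lost, so that V5 counts at promoters, in bodies and within 50 kb were all 0, and RNAPOL2 peaks within 50 kb fell from 22 to 10. Bodies without promoter windows left V5 in 0, RNAPOL2 in 2 and H3K27ac in 0 genes, and requiring the middle base in the body left V5 in 0. A window of 100 kb gave 3 V5, 36 RNAPOL2 and 31 H3K27ac peaks, against 1, 22 and 13 within 50 kb. H3K27ac peaks numbered 9 both with a window of 25 kb and with the upper 50% by score. The shares of coding genes with a promoter peak ranged from 7.30% to 17.9% for V5, from 46.9% to 55.1% for RNAPOL2 and from 50.1% to 60.1% for H3K27ac. No paired analysis was possible because each list carries no values per sample, and for that reason no sample could be left out. The depth of the libraries is not in the lists, so a gene without a V5 peak is one where none was called, not one shown to lack the fusion.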
